A study of Mus musculus with 8 samples.

Results

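The serpins described here are 8 genes, Serpina3n, Serpina3g, Serpinb2, Serpinb6a, Serpine2, Serpinf1, Serping1 and Serpinh1, taken by symbol from the 53647 genes of the count files. They were picked by name with results of these libraries in view, from the comparisons between control and cytokines described here. Their values are therefore given as a description, without p-values, and the counts of called members support nothing by themselves. All 8 had enough counts to be tested. The cultures were myotubes of wild-type (WT) mice, fused in vitro from limb-muscle myoblasts of pups aged 2 to 3 days in medium with 5% horse serum, and collected 72 h after differentiation began. For 48 h they received OSM (oncostatin M), LIF (leukaemia inhibitory factor) or IL6 (interleukin 6) at 250 ng/ml, or they were labelled as control, with no vehicle named. Each of the 4 groups held 2 libraries, and the labels do not say whether these were separate animals, litters or dishes, so the spread between them may be technical.

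Serpins are a protein family built on one fold. Most act as suicide inhibitors: a protease cuts the exposed reactive loop of the serpin, the loop inserts into the serpin's body, and the protease is trapped. Some members have lost inhibition and serve as chaperones or hormone carriers. OSM, LIF and IL6 share the receptor subunit gp130 and activate STAT3, a factor that binds palindromic DNA sites and is a known driver of the liver's acute-phase genes, among them serpins of the A3 group.

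Promoter sequences are shown because members with the same type of site behaved differently and because Serpina3n, which changed most with LIF, had none of the sites searched. RefSeq promoters (build GRCm38.p6, 250 bases before the gene start to 50 after it) were found for 7 of the 8 members, all but Serping1. They were searched for the STAT pattern TTCNNNGAA, the AP-1 pattern TGANTCA and the heat shock pattern GAANNTTC, each of which reads the same on both strands. Below are the 250 bases before the start, 5′ to 3′, with matches in capitals.
Serpina3n, chr12:104406458-104406707, plus strand: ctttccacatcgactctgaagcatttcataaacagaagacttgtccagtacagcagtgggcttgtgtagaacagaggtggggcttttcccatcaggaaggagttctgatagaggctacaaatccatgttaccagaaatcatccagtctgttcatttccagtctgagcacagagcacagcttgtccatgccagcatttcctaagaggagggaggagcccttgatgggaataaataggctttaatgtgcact
Serpina3g, chr12:104235897-104236146, plus strand: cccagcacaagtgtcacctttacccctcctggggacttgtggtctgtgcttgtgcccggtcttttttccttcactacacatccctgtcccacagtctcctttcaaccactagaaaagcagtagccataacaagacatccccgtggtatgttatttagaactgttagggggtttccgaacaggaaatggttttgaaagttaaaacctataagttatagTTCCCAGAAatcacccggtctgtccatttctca
Serpinb2, chr1:107511173-107511422, plus strand: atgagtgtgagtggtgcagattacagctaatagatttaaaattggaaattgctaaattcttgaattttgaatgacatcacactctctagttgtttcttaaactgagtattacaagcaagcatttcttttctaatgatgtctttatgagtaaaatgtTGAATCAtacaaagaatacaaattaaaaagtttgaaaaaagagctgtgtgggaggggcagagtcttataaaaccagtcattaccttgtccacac
Serpinb6a, chr13:34002795-34003044, minus strand: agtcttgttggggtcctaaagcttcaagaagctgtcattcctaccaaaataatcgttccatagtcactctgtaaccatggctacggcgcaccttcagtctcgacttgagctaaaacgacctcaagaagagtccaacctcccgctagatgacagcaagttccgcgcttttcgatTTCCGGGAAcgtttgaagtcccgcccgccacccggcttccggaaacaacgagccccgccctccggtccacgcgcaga
The Serpina3g window held a STAT pattern, TTCCCAGAA, at bases -33 to -25 from the start. Serpinb2 has 2 starts. From the upstream one, shown here, an AP-1 pattern lay at -94 to -88 and a STAT pattern, TTCCAAGAA, at 11 to 19 after the start. From the other start the same matches lay upstream, at -181 to -175 and -77 to -69. For the upstream of the 2 starts of Serpinb6a, TTCCGGGAA was found at -77 to -69 and again at 21 to 29 after it, and the window of its other start held none. No pattern was present in the windows of Serpina3n, Serpine2, Serpinf1 and Serpinh1. Of 32851 promoter windows of this length, 8.3% held the STAT pattern, 7.81% the AP-1 pattern and 7.86% the heat shock pattern. These matches describe letters in a short window and are not binding data. Sites outside the window were not searched, and a link between sites and changes was not tested.

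Levels are CPM, counts scaled by the TMM-adjusted library size, and a gene is called when the edgeR quasi-likelihood test over all 15603 tested genes gave a Benjamini-Hochberg adjusted p under 0.05. With OSM 4 of the 8 members were called, all higher, against 10.8% of all tested genes called higher, 10.6% lower and 21.4% in either direction. With LIF the same 4 members were called higher (4.2% of all genes higher, 3.46% lower, 7.66% in either direction). With IL6 none was called (0% of all genes), and none of the 8 had an unadjusted p under 0.05 in edgeR. DESeq2 also called none of them with IL6. The 3 comparisons share their control libraries. The 4 members called with OSM and LIF were Serpina3n, Serpinb2, Serpinb6a and Serpinf1, 2 inhibitors near absence in control and 2 genes that were abundant throughout. In bulk RNA, a change in the number of cells of a type and a change in mRNA per cell cannot be told apart.

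**Figure D1:**
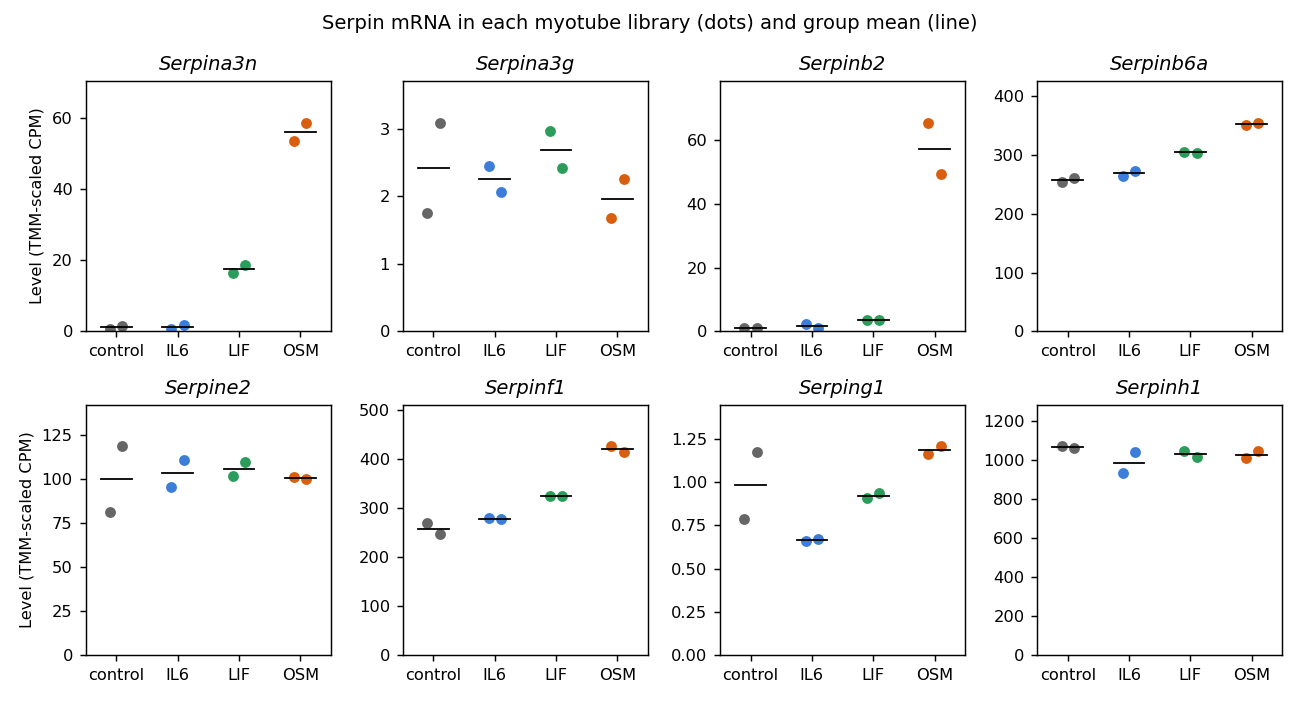
Level of each listed serpin (y axis, TMM-scaled CPM from 0) in the 2 libraries of each group (dots), with the group mean as a line. Serpina3n, Serpinb6a and Serpinf1 step up from LIF to OSM, Serpinb2 is high in the OSM libraries, and the control libraries of Serpina3g, Serpine2 and Serping1 lie far apart.

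Among the protease inhibitors, Serpina3n encodes a secreted acute-phase inhibitor of granzyme B, cathepsin G and elastase, related to human antichymotrypsin. Its level was 0.721 and 1.44 CPM in the control libraries, 0.695 and 1.89 with IL6, 16.5 and 18.7 with LIF, and 53.7 and 58.8 with OSM. Both OSM libraries lay above both LIF libraries, which lay far above the overlapping control and IL6 libraries. The fitted change was 51.6-fold with OSM (log2 change 5.69, SE 0.28, 95% interval 33.5 to 79.3-fold) and 16.2-fold with LIF (log2 change 4.01, SE 0.30). OSM exceeded LIF 3.19-fold (95% interval 2.37 to 4.30), a called difference. With IL6 the fitted change was 0.24 on the log2 scale (SE 0.44), which turned to -0.17 without control replicate 1 and -0.64 without IL6 replicate 2. In the M21 gene models 6.90% of the 50-base stretches of Serpina3n also occur in other genes, 2.68% in Serpina3e-ps and the rest spread over further genes.

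Serpinb2 encodes plasminogen activator inhibitor 2, a largely intracellular inhibitor of urokinase and tissue plasminogen activator. It measured 1.17 and 0.940 CPM in control, 2.22 and 1.01 with IL6, 3.57 and 3.42 with LIF, and 65.6 and 49.3 with OSM. The OSM libraries stood apart from all others, and the LIF libraries stood above IL6 and control without overlap. The change was 54.4-fold with OSM (log2 change 5.76, SE 0.26) and 3.31-fold with LIF (log2 change 1.73, SE 0.34). OSM exceeded LIF by 16.4-fold (95% interval 11.8 to 22.9), and this difference was called. Serpina3n and Serpinb2 thus reached near-equal levels with OSM from near-equal levels in control, but with LIF Serpina3n had 17.6 CPM and Serpinb2 3.49. The LIF call of Serpinb2 was lost when any 1 of the control or LIF libraries was left out, with log2 changes of 1.58 without control replicate 2, 1.89 without control replicate 1, 1.70 without LIF replicate 1 and 1.76 without LIF replicate 2. With IL6 the fitted log2 change was 0.62 (SE 0.39) and became -0.057 without IL6 replicate 1. Exons of Serpinb2 overlap those of Serpinb10 on the same strand over 12.4% of their length, and Serpinb10 had 0 to 3 counts per library.

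Serpinb6a encodes an intracellular inhibitor of cathepsin G and related trypsin-like proteases. It was at 255 and 261 CPM in control, 265 and 273 with IL6, 306 and 304 with LIF, and 351 and 355 with OSM. The 4 groups did not overlap and were ordered control, IL6, LIF, OSM. The change was 1.37-fold with OSM (95% interval 1.26 to 1.49) and 1.18-fold with LIF (95% interval 1.09 to 1.29), and OSM was called above LIF at 1.16-fold. The LIF call was lost without control replicate 1 (log2 change 0.23), LIF replicate 1 (0.24) or LIF replicate 2 (0.25), against 0.24 with all libraries. The call of OSM above LIF was lost without any 1 of the LIF or OSM libraries, at log2 differences of 0.21 to 0.22. Exons of Nqo2, Ripk1 and 1110046J04Rik cover 29.3% of the exon length of Serpinb6a on the opposite strand, and the strand setting of the counting is not given in the sources used here.

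Serpina3g encodes an intracellular A3 serpin known as an inhibitor of cysteine cathepsins that is induced by interferon gamma in immune cells. Its level was 1.75 and 3.09 CPM in control, 2.45 and 2.06 with IL6, 2.96 and 2.41 with LIF, and 1.68 and 2.25 with OSM. The control libraries spanned all but the lowest OSM library. The fitted log2 change was -0.30 with OSM (95% interval -0.91 to 0.31) and 0.15 with LIF (95% interval -0.44 to 0.73), neither called. Without control replicate 2 the OSM change became 0.17, and without control replicate 1 the LIF change became -0.20. Of its 50-base stretches, 16.0% occur in other genes, mainly Serpina3h, so some reads of Serpina3g may not be assigned to it.

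Serpine2 encodes protease nexin 1, a secreted inhibitor of thrombin, urokinase and plasmin. It was at 81.6 and 119 CPM in control, 95.7 and 111 with IL6, 102 and 109.8 with LIF, and 101 and 99.8 with OSM. The control libraries were the lowest and the highest of the 8. The log2 change was 0.0078 with OSM (95% interval -0.34 to 0.35), 0.078 with LIF (-0.27 to 0.42) and 0.045 with IL6 (-0.30 to 0.39), none called. These values depended on which control library was kept: without control replicate 2 the OSM change was 0.31 and the LIF change 0.38, both then called, and without control replicate 1 they were -0.24 and -0.17, not called.

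Serping1 encodes C1 inhibitor, which blocks the complement proteases C1r and C1s and plasma kallikrein. It had 20 to 36 counts per library, or 0.789 and 1.18 CPM in control, 0.662 and 0.674 with IL6, 0.908 and 0.938 with LIF, and 1.16 and 1.21 with OSM. Both IL6 libraries were the lowest of the 8, and the control libraries spanned the LIF libraries and the lower OSM library. None of its changes against control was called, at log2 values of 0.27 with OSM (95% interval -0.39 to 0.93), -0.091 with LIF and -0.56 with IL6. The interval ran from -0.77 to 0.59 with LIF and from -1.27 to 0.16 with IL6. At these counts the intervals are wide, and changes within them are not excluded.

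The other 2 members do not inhibit proteases. Serpinf1 encodes pigment epithelium-derived factor (PEDF), a secreted protein known for blocking vessel growth and for its role in bone. Its level was 268 and 246 CPM in control, 279 and 276 with IL6, 324.5 and 324.1 with LIF, and 425 and 413 with OSM. No groups overlapped, in the order control, IL6, LIF, OSM. OSM changed it 1.63-fold (95% interval 1.49 to 1.78) and LIF 1.26-fold (1.15 to 1.38), and OSM was called above LIF at 1.29-fold (1.18 to 1.41). The LIF call was lost without LIF replicate 1 (log2 change 0.33) or LIF replicate 2 (0.34), against 0.33 with all libraries. Serpinf1 is the member with the second highest level per length, so a small fold spans many counts: its group means were 257 CPM in control and 419 with OSM, where those of Serpina3n were 1.08 and 56.2.

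Serpinh1 encodes HSP47, the collagen chaperone of the endoplasmic reticulum. It was at 1072 and 1065 CPM in control, 933 and 1043 with IL6, 1050.2 and 1017 with LIF, and 1012 and 1047 with OSM. Both control libraries were above all others. The log2 change was -0.054 with OSM (95% interval -0.20 to 0.087), -0.048 with LIF and -0.11 with IL6, none called. The 95% intervals run from 0.873 to 1.06-fold for OSM and from 0.877 to 1.07-fold for LIF.

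**Figure D2:**
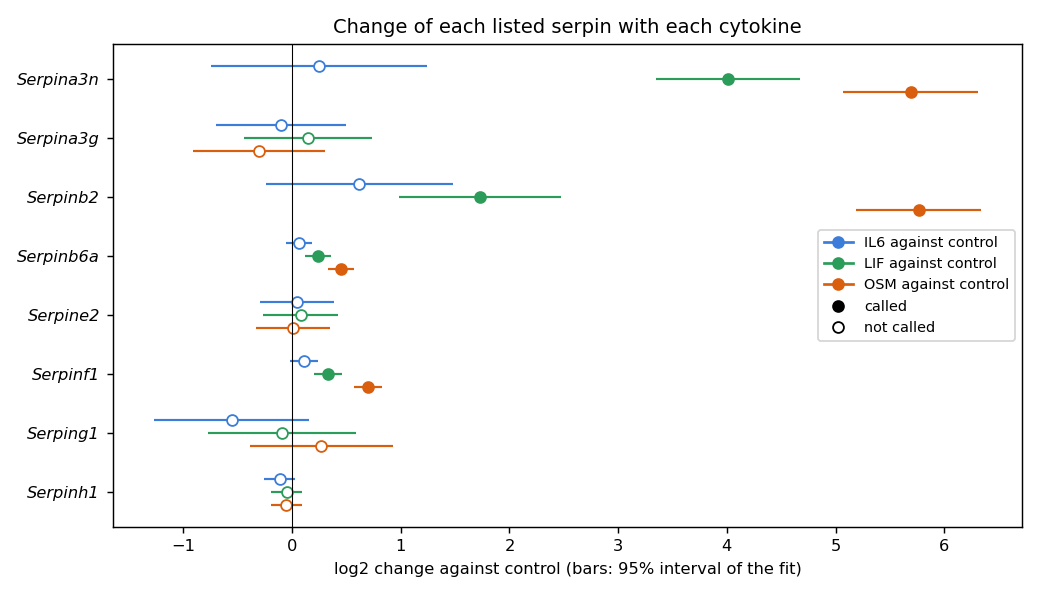
Fitted log2 change against control (x axis) of each listed serpin with IL6, LIF and OSM, with 95% intervals as bars and filled dots for called changes. Serpina3n and Serpinb2 lie between 5.69 and 5.76 with OSM, and they separate with LIF at 4.01 and 1.73.

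Between cytokines, OSM exceeded LIF for Serpina3n, Serpinb2, Serpinb6a and Serpinf1 (4 of 8 called, all higher, against 4.01% of all genes higher, 4.04% lower and 8.04% in either direction). OSM exceeded IL6 for the same 4 (8.02% of all genes higher, 7.52% lower, 15.5% in either direction), by 43.6-fold for Serpina3n, 35.4-fold for Serpinb2, 1.31-fold for Serpinb6a and 1.51-fold for Serpinf1. LIF exceeded IL6 for Serpina3n alone (1 of 8 called, against 1.76% of all genes higher, 1.02% lower and 2.78% in either direction), by 13.6-fold. Serpinb2 (2.15-fold) and Serpinf1 (1.17-fold) were not called between LIF and IL6, and with the replicate number as a block, or with no filter on low counts, both were called too, making 3 of 8.

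Set in order of level per kilobase of exon (M21 gene models), control ran Serpinh1 (437.4 CPM per kb), Serpinf1 (109), Serpinb6a (47.6), Serpine2 (12.1), Serpina3g (1.15), Serpina3n (0.524), Serpinb2 (0.449) and Serping1 (0.423). The libraries of the last 3 overlapped, so their order is not resolved. With OSM the order became Serpinh1 (421), Serpinf1 (177.5), Serpinb6a (65.2), Serpina3n (27.2), Serpinb2 (24.5), Serpine2 (12.1), Serpina3g (0.932) and Serping1 (0.510), with Serpina3n and Serpinb2 overlapping. With LIF Serpina3n took the fifth place at 8.53 CPM per kb, below Serpine2 at 12.8. Summed over all serpin genes, the level per kb was 763 and 773 in control, 758 and 797 with IL6, 923 and 908 with LIF, and 1041 and 1027 with OSM. Serpinh1 made up 57.5% and 56.4% of this sum in control and 39.8% and 41.7% with OSM. Serpina3n went from 0.0457% and 0.0906% to 2.50% and 2.77%.

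The wider family was read from every other gene with a Serpin symbol, 60 in all, of which 21 had no count in any library and 16 had enough to be tested. With OSM 5 of the 16 were called, 4 higher and 1 lower, and with LIF 4, all higher. Over all tested genes these shares were 21.4% with OSM (10.8% higher) and 7.66% with LIF (4.2% higher). None was called with IL6 in edgeR. The median log2 change over the 16 was 0.42 with OSM and 0.15 with LIF, where all tested genes had -0.0029 and -0.0079. Among the called genes, Serpina3i and Serpina3m were below the count filter's minimum of 10 in control, and Serpina6 was below it with OSM. These genes were tested only through groups where they were higher, so the counts and medians support nothing by themselves.

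Serpinb1a, an intracellular inhibitor of neutrophil elastase and cathepsin G, was higher with LIF than with OSM, unlike the 4 called members. It was at 151 and 192 CPM in control, 208 and 222 with IL6, 352 and 347 with LIF, and 251 and 272 with OSM. It rose by 1.03 with LIF (SE 0.094, adjusted p 5.84e-05) and by 0.61 with OSM (SE 0.094, adjusted p 0.000594), and OSM was lower than LIF by a log2 difference of -0.42 (SE 0.093, adjusted p 0.016). That difference lost its call without any 1 of the 4 LIF and OSM libraries: the adjusted p was 0.137 without LIF replicate 1, 0.0927 without LIF replicate 2, 0.218 without OSM replicate 1 and 0.0687 without OSM replicate 2, at log2 differences of -0.47 to -0.36. No group overlapped another.

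Near Serpina3n on chromosome 12 lies a run of 28 serpin genes of the A clade in the RefSeq gene order, of which 8 were tested, and 4 of these were called with OSM and 3 with LIF, Serpina3n, itself picked with its result in view, among them both times. The shares over all tested genes were 21.4% and 7.66%. The A3 group has 14 symbols in the files, 5 tested. Serpina3m, the nearest serpin to Serpina3n in that order, had 1 and 6 counts in control, 12 and 5 with IL6, 29 and 21 with LIF, and 47 and 51 with OSM. Its log2 change was 3.76 with OSM (SE 0.53) and 2.78 with LIF (SE 0.59), both called. The LIF call was lost without control replicate 1 (log2 change 2.04) or LIF replicate 1 (2.53). Serpina3i had 6 and 3 counts in control, 11 and 11 with IL6, 30 and 33 with LIF, and 45 and 42 with OSM. It rose by 3.24 with OSM (SE 0.41) and by 2.76 with LIF (SE 0.43), both called. The control libraries of Serpina3m and Serpina3i were below the count filter's minimum of 10. Both genes were tested only because of their counts with cytokine, so their calls are a description and support nothing by themselves. Of the 50-base stretches of Serpina3m, 19.1% recur elsewhere among genes and 1.12% in Serpina3n. For Serpina3i these shares are 15.4% and 0%, so the counts of both are uncertain. Serpina3g lies in the same run, next to Serpina3h and Serpina3f.

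Serpina6, near the other end of that run, encodes corticosteroid-binding globulin. It had 14 and 12 counts in control and 4 and 2 with OSM, a log2 change of -2.07 (SE 0.65), called. Both OSM libraries were below the count filter's minimum of 10, so the gene was tested only through groups where it was higher. The call was lost without any 1 of the control or OSM libraries. The log2 change was -1.94 without control replicate 1, -2.19 without control replicate 2, -2.64 without OSM replicate 1 and -1.65 without OSM replicate 2. The call was also lost with DESeq2 (adjusted p 0.137). The run with Serpinb2 on chromosome 1 held 12 serpins, 3 of them tested, and Serpinb2 was the only one called. Of 16 on chromosome 13, 7 were tested, and Serpinb6a and Serpinb1a were called with OSM and with LIF. Over all tested genes, 21.4% were called with OSM and 7.66% with LIF. Serpinb2 and Serpinb6a are members, picked with their results in view. With so few tested genes in each, these counts set neither run apart. The most abundant serpins that were called in no comparison were Serpinb8, Serpinb9 and Serpinb1b, with OSM log2 changes of 0.36, 0.32 and 0.22. For Serpinb8 the OSM change without control replicate 2 was 0.72 and was then called, as was the change of 0.36 with no filter on low counts (adjusted p 0.0301).

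**Figure D3:**
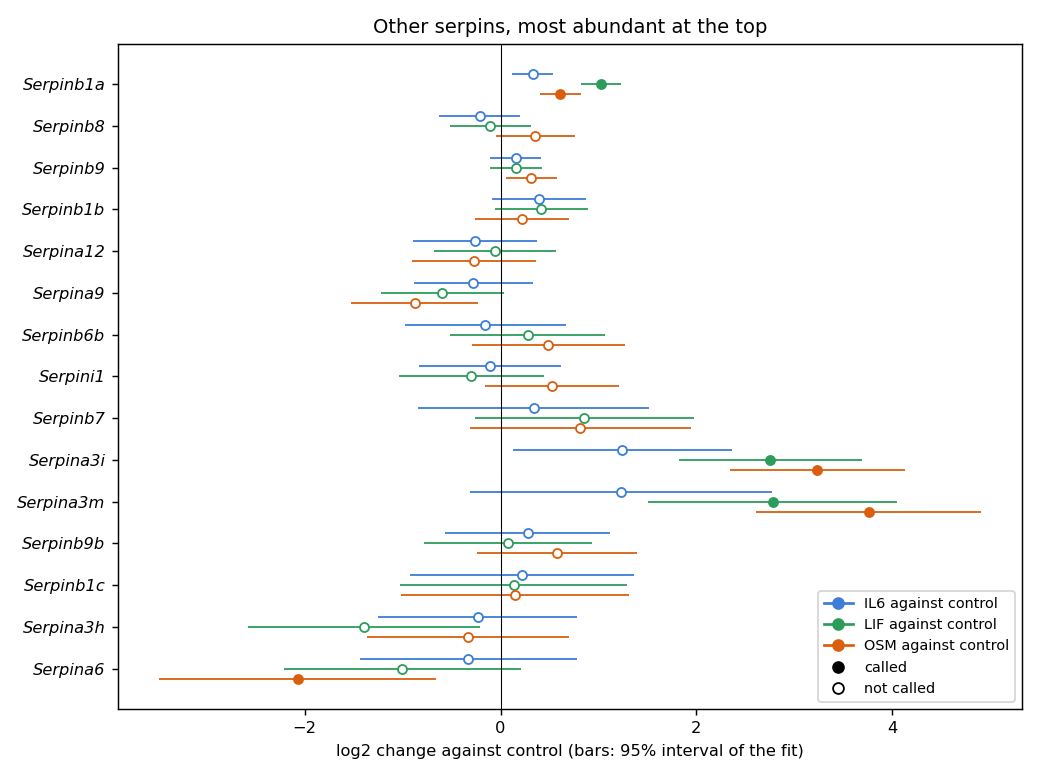
Fitted log2 change against control (x axis) of the other serpins reported here with IL6, LIF and OSM, with 95% intervals and filled dots for called changes, most abundant gene at the top. Serpinb1a is higher with LIF than with OSM, and Serpina3i and Serpina3m lie between 2.76 and 3.76 with both.

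The proteases, receptors and client proteins of these serpins were read from 5 further lists, in comparisons with control. Over all tested genes, 10.8% were called higher and 10.6% lower with OSM, and 4.2% higher and 3.46% lower with LIF. In the plasminogen and thrombin list, 10 of 12 genes were tested, and 3 were called higher and 2 lower with OSM (median log2 change -0.18), with 2 higher and 2 lower with LIF (median -0.045). Plat, the gene of tissue plasminogen activator and a target of Serpinb2, rose by 1.21 with OSM (SE 0.074, adjusted p 1.16e-07), from 43.8 ± 3.03 to 101.04 ± 0.995 CPM (SD, 2 libraries each). Plau, the gene of urokinase, changed by -0.55 with OSM (SE 0.078, adjusted p 0.000208), from 94.0 ± 3.24 to 64.3 ± 2.00 CPM, and by -0.48 with LIF (adjusted p 0.00233). The 2 activator genes thus moved in opposite directions with both cytokines, though the LIF change of Plat (0.38, adjusted p 0.00773) lost its call without control replicate 1 (0.31, adjusted p 0.0579) or LIF replicate 2 (0.32, adjusted p 0.136). Pdpn, the gene of the platelet-activating surface protein podoplanin, rose by 1.16 with OSM (SE 0.076) and by 0.70 with LIF (SE 0.076). F2rl2, which encodes a thrombin receptor, changed by -0.96 with OSM (adjusted p 0.0204) at 27 to 72 counts per library, and its call was lost without control replicate 2 (adjusted p 0.116), without OSM replicate 1 (0.194) and with DESeq2 (0.0605). Plasminogen itself, Plg, had 0 to 3 counts.

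In the complement and contact list, 5 of 14 genes were tested. With OSM 4 of these rose (median log2 change 1.86 over the 5), against 10.8% of all tested genes called higher. With LIF 2 rose (median 0.99), against 4.2% of all tested genes. The LIF count ran from 1, without control replicate 1 or LIF replicate 2, to 3, with no filter, with DESeq2, with the replicate block and without control replicate 2 or either IL6 library. C3, the central complement component, had 4.48 ± 0.26 CPM in control and 25.03 ± 3.71 after OSM. Its log2 change was 2.48 (SE 0.13, adjusted p 2.87e-08), and 1.39 for LIF (SE 0.135, adjusted p 5.31e-05). C1s1 and C1ra, which encode the proteases that Serping1 blocks, were higher after OSM by 2.22 (SE 0.34, adjusted p 0.000487) and 1.86 (SE 0.28, adjusted p 0.000332). C1s1 went from 15 and 42 counts in control to 123 and 144 with OSM, and C1ra from 27 and 57 to 127 and 180. Masp1, a lectin-pathway protease that Serping1 also inhibits, was higher after OSM by 0.84 (SE 0.096, adjusted p 3.47e-05). Serping1 itself was not called in these libraries, as given above. C1ra, called under each setting that gave 3, had a LIF change of 0.99 (SE 0.29, adjusted p 0.0591, and 0.0149 with the block). The LIF call of C1s1 (1.67, adjusted p 0.0113) was lost without control replicate 1 (adjusted p 0.0527) or LIF replicate 2 (adjusted p 0.144). C1qa, C1qb and C1qc had at most 1 count in any library.

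Of 10 granule and lysosome proteases, 4 were tested, and Ctsb, Ctsl and Ctsd rose in the OSM libraries, by 0.85 (SE 0.095, adjusted p 4.92e-05), 0.52 (SE 0.064, adjusted p 6.32e-05) and 0.51 (SE 0.076, adjusted p 0.000322). These encode the lysosomal cathepsins B, L and D, of which B and L are cysteine proteases of the kind that Serpina3g inhibits. Of all tested genes, 10.8% were called higher with OSM and 4.2% with LIF. The list median was 0.51 with OSM and 0.33 with LIF. With LIF 1 was called, Ctsb (0.40, adjusted p 0.0245), a count that ran from 0 to 3 with single libraries left out, and Ctsb lost its call without control replicate 1 (adjusted p 0.130), LIF replicate 1 (0.104), LIF replicate 2 (0.196), OSM replicate 1 (0.0536) or OSM replicate 2 (0.0548). The fourth tested gene, Prtn3, which encodes the neutrophil granule protease proteinase 3, had 61 to 102 counts per library and an OSM change of 0.16 (SE 0.26, adjusted p 0.726), not called. Some granule proteases that Serpina3n and Serpinb6a are known to inhibit were near absence: Elane had at most 1 count, Ctsg at most 1, and Gzmb 7 and 1 in the OSM libraries and 0 in the other 6, which allows up to 3 counts in each.

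Of 10 serpin-binding receptors and cofactors, 9 were tested, 3 rose with OSM and 2 with LIF, with medians of 0.0032 and 0.0020. Over all tested genes, 10.8% were called higher with OSM and 4.2% with LIF. Sdc1, a heparan sulphate proteoglycan of the cell surface, rose by 2.03 with OSM (SE 0.065, adjusted p 7.72e-10), from 132 ± 4.35 to 538 ± 16.6 CPM, and by 0.995 with LIF (SE 0.063, adjusted p 1.36e-06). Sdc4 rose by 0.72 with OSM and 0.43 with LIF (SE 0.060 in both). Lrp1, the endocytic receptor that clears serpin-protease complexes, rose by 0.35 with OSM (SE 0.059, adjusted p 0.000862). Pnpla2, a lipase that binds the Serpinf1 product, was not called with any cytokine.

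Of 20 collagen and collagen-folding genes, all tested, 8 rose and 2 fell with OSM (median 0.17). With LIF 5 rose and 2 fell (median 0.11), while the collagen chaperone gene Serpinh1 was not called. Over all tested genes, 10.8% were called higher and 10.6% lower with OSM, and 4.2% higher and 3.46% lower with LIF. The LIF count of 7 was 3 without LIF replicate 1 and 1 without LIF replicate 2. Plod3, which encodes a lysyl hydroxylase that modifies collagen, rose by 1.09 with OSM (SE 0.058, adjusted p 3.38e-08) and 0.58 with LIF (SE 0.058, adjusted p 5.84e-05). The basement membrane collagen genes Col4a1 and Col4a2 changed by -1.01 (SE 0.086, adjusted p 2.93e-06) and -0.72 (SE 0.068, adjusted p 5.06e-06) with OSM. The fibrillar collagen genes Col3a1, Col5a1 and Col5a2 rose with OSM by 0.49 (SE 0.075, adjusted p 0.000373), 0.33 (SE 0.065, adjusted p 0.0027) and 0.38 (SE 0.058, adjusted p 0.000375). Their mean levels went from 1433 to 2018 CPM, 727 to 911 CPM and 527 to 686 CPM. Fibrillar genes on the list did not all rise: Col1a1 went from 239 to 78.4 CPM with OSM, not called. Col1a2 had only 16 to 31 counts per library. Crtap, a subunit of the prolyl 3-hydroxylase complex, rose by 0.50 with OSM (SE 0.072, adjusted p 0.000252).

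**Figure D4:**
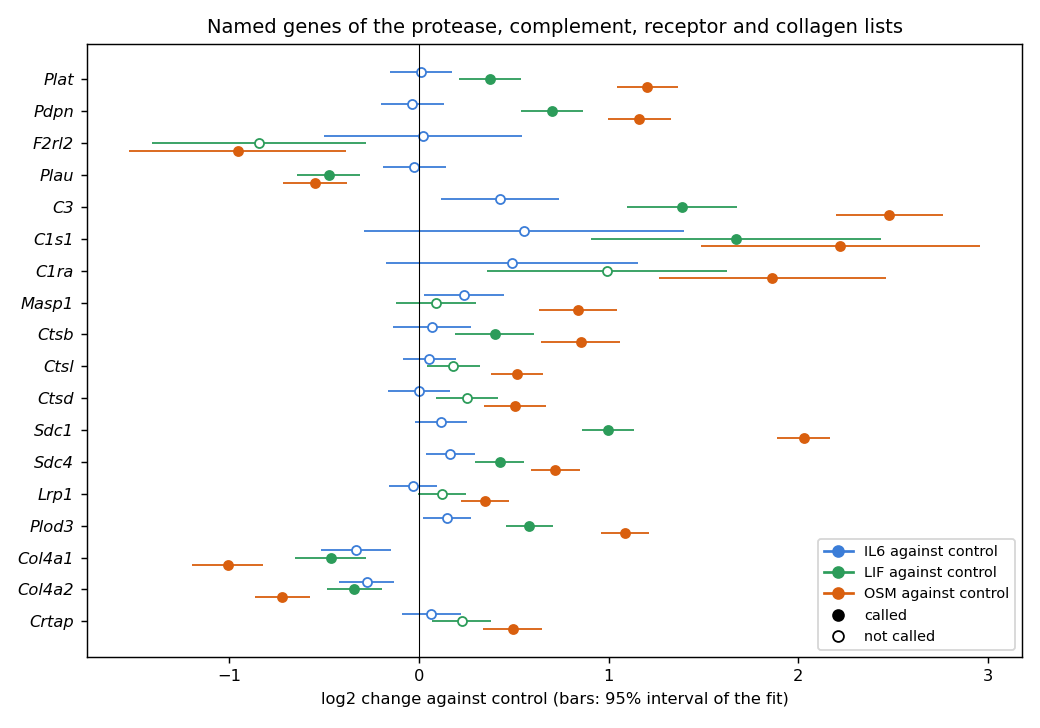
Fitted log2 change against control (x axis) of the named protease, complement, receptor and collagen genes with IL6, LIF and OSM, with 95% intervals and filled dots for called changes. Sdc1, C3 and C1s1 are the highest with OSM, at 2.03, 2.48 and 2.22, and Col4a1 the lowest at -1.01.

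The genes most like each member over the 8 libraries were found by Pearson r of log2 CPM among 10736 protein-coding genes, as a description without a test, since the libraries share groups and any gene with the same order of groups scores high. Serpinb2 was closest to Jcad (r 0.999), Serpina3n to Pdpn and Col5a2 (both 0.992), Serpinb6a to Ecm1 and Ctsa (both 0.998), and Serpinf1 to Timp1 (0.997) and Adam9 (0.996). The uncalled members gave lower values: Serpine2 with Pithd1 (0.972) and Cers1 (0.948), Serpinh1 with Ipo4 (0.960) and Fam120a (0.957), Serping1 with Arhgap44 (0.957) and Wdpcp (0.953), and Serpina3g with Lpar4 (0.919) and Ncoa1 (0.902).

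Gene totals were 29482077 to 30025471 counts per library, and replicates of a group correlated at 0.992 to 0.995 on the log2 scale. The 8 myotube markers summed to 20740 to 21530 CPM in control, 17810 to 20440 with IL6, 19000 to 20210 with LIF and 18320 to 18480 with OSM. Their median log2 change against control was -0.205 with OSM, -0.117 with LIF and -0.0958 with IL6. With OSM, as with LIF, Myog and Myh8 were called lower and Des higher. The 8 macrophage markers summed to 8.56 to 9.92 CPM in control, 10.7 to 15.5 with IL6, 14.7 to 15.3 with LIF and 15.0 to 16.3 with OSM. Of these, Adgre1 had at most 1 count, Fcgr1 at most 2, Ptprc at most 3, Lyz2 at most 5 and Csf1r at most 7. Mrc1 made up most of the macrophage sum (6.44 CPM in control, 9.22 with IL6, 11.3 with LIF and 10.3 with OSM). Cd68 was called higher with OSM and Mrc1 with OSM and LIF. The 8 fibroblast markers summed to 379 to 468 CPM in control, 343 to 374 with IL6, 389 to 437 with LIF and 272 to 292 with OSM, with Lum at 0 in all libraries and Thy1 at most 1 count. Col6a3 made up most of that sum (352 CPM in control, 162 with OSM). It and Cd34 were called lower with OSM, and Ly6a (35.0 to 88.9 CPM) and Pdgfra (8.92 to 12.8 CPM) higher. The 6 endothelial markers summed to 1.10 to 1.91 CPM, with Emcn at 0 in all libraries, while the 4 myoblast markers summed to 222 and 224 CPM with OSM and 186 to 204 in the other libraries, with Pax7 and Myf5 called higher. The part of such cells in the serpin values was not tested.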

How the data were processed

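The authors deposited raw read counts per gene, 1 file per library, with replicates not pooled. Per the labels' protocols, total RNA went into Illumina's stranded mRNA preparation. The submitters' processing notes name Trim Galore 0.6.5, STAR 2.7.3a, HTSeq 0.11.1 and the build GRCm39; the counting's strand setting and annotation release are not given in the sources used here. HTSeq's summary lines (11.7% to 12.7% of each file) were left out. Symbols for 52093 of 53647 identifiers came from a supplied table of gene names, and exon lengths, overlaps and shared sequence from GENCODE M21 (GRCm38).

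Counts were tested with edgeR 4.0.16 in R 4.3.3: filterByExpr (minimum count 10, 15603 genes kept), TMM scaling, a robust quasi-likelihood fit with 4 group means over all 8 libraries (4 residual degrees of freedom), and Benjamini-Hochberg adjustment over all genes tested. SE is the log2 change divided by the square root of F. Fold and log2 changes are the fitted values. The code was tested on simulated data. Limits from counts of 0 (3 counts) cover counting error only. Intervals of changes come from the fit and also hold its estimate of the spread between libraries of a group.

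The members and lists were chosen with earlier results of these data known. Named besides the members are every other serpin called in any comparison, the 3 most abundant not called, up to 4 called genes of each partner list by size of change with OSM or LIF, and the 2 genes most correlated with each member (mean of at least 100 counts, log2 CPM with prior count 2). Col1a1, Col1a2, Col3a1, Col5a1, Pnpla2, Prtn3 and the marker genes were chosen after their values were seen. So were the genes given as near absence (Plg, the C1q genes, Elane, Ctsg, Gzmb). Results for 2 genes that the rule names are not reported here; counts, medians and sums over all serpins still include them where they apply. Alternatives were other size factors, no filter on low counts, DESeq2 1.42.0, fits of 2 groups, a replicate block, a 2-fold requirement and each library left out. For genes that are not members and for the lists, these alternatives were added after the data were seen.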

Additional observations from a re-analysis of the deposited data

How the results depend on the processing

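Of 48 changes of the 8 members (6 comparisons each), 27 kept their direction and call under all alternatives, as did 40 of 58 changes of other named genes. The changes of Serpina3n and Serpinb2 with OSM were among them. Requiring a 2-fold change left 2 members called for OSM against control, 2 for LIF against control, and 2 each where OSM was set against LIF and against IL6. It left 763, 176, 283, 553 and (LIF against IL6) 65 genes in all, in the same order. With 1 library left out, members called with LIF ran from 1 (without LIF replicate 1 or 2) to 4, and for LIF against IL6 from 1 to 2. With no filter on low counts 3 members and 985 genes were called for LIF against IL6, and 97 genes for IL6 against control. DESeq2 called 2 members for LIF against IL6 and 19 genes for IL6 against control. A fit of 2 groups called 2928 genes for OSM against LIF. With 1 library left out, the genes called ran from 1622 to 4067 for OSM, 316 to 1688 for LIF, 0 to 221 for IL6, 437 to 1764 for OSM against LIF, 1105 to 2713 for OSM against IL6 and 82 to 739 for LIF against IL6.

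The replicate number as a replicate block called 3 members and 826 genes for LIF against IL6, 9 genes for IL6 against control, and the same number of members as without it in the other 5 comparisons. The numbers were not taken as pairs: the 6 correlations of replicate differences between groups ran from 0.00708 to 0.181, all positive, which is a hint from the data and not from the design.

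Directions that turned with 1 library left out all belonged to changes that were not called with all libraries. The log2 change of Serpina3g ran from -0.65 to 0.17 for OSM against control, -0.20 to 0.62 for LIF against control (-0.0063 between), -0.45 to 0.37 for IL6 against control (0.013 between) and -0.42 to 0.0036 for OSM against IL6. The log2 change of Serpine2 ran from -0.24 to 0.31 for OSM against control, -0.17 to 0.38 for LIF against control, -0.20 to 0.34 for IL6 against control (-0.065 between), -0.13 to 0.074 for OSM against IL6 and -0.065 to 0.14 for LIF against IL6 (-0.023 between). Serping1 ran from -0.35 to 0.23 for LIF against control. Serpinb8 ran from -0.39 to 0.26 for LIF against control. Serpina3n ran from -0.64 to 0.83 for IL6 against control (-0.17 between). Serpinb2 ran from -0.057 to 1.07 for IL6 against control. The log2 change of Serpinh1 ran from -0.029 to 0.022 for OSM against LIF (0.018 between), -0.012 to 0.14 for OSM against IL6 and -0.010 to 0.15 for LIF against IL6.

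Depth limits Serpina3g (49 to 92 counts) and Serping1 (20 to 36 counts) in all groups. It also limits Serpina3n (21 and 43 counts in control) and Serpinb2 (34 and 28 counts in control). The OSM changes of these genes have SEs of 0.28, 0.305, 0.28 and 0.26 in the order named, against 0.055 for Serpinb6a. With IL6, the largest SEs among the members were those of Serpina3n (0.44) and Serpinb2 (0.39).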

Other observations

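Col1a1, the gene of the main fibrillar collagen chain that the Serpinh1 product folds, was chosen here after its values were seen. It had 9004 and 5046 counts in control, 2787 and 4769 with IL6, 5452 and 3518 with LIF, and 2108 and 2524 with OSM. Both OSM libraries were below all others, and the control libraries differed from each other by more than the IL6 libraries did. The log2 change with OSM was -1.61 (SE 0.47, adjusted p 0.0858 in edgeR), not called, and over the alternatives the adjusted p ran from 0.00548 with DESeq2 to 0.283 without control replicate 1. In the same comparison Serpinh1 moved by -0.054, and the more abundant fibrillar collagen gene Col3a1 rose by 0.49 (adjusted p 0.000373 in edgeR).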
